A study of Mus musculus with 7 samples.

Results

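Muscle fibers burn ATP in bursts, and a small group of abundant proteins keeps its level steady while mitochondria and glycolysis catch up. RNA of 8 such genes was followed here: the creatine kinases Ckm, Ckmt2 and Ckb, the oxygen-binding protein myoglobin (Mb), adenylate kinase 1 (Ak1), AMP deaminase 1 (Ampd1), muscle glycogen phosphorylase (Pygm) and the mitochondrial ADP/ATP carrier (Slc25a4). They were chosen by gene symbol for their roles, and all 8 are among the 31531 genes measured. The RNA came from fibers of the epaxial (back) muscles of C57BL/6 fetuses at embryonic day 17.5, from 4 WT and 3 homozygous dyW fetuses, with the label wt or dyW for genotype and no treatment in either group. The dyW allele disrupts Lama2, the gene of the laminin α2 chain of the basement membrane around muscle fibers, in every cell of the fetus, and such mice model LAMA2-congenital muscular dystrophy (LAMA2-CMD). Fibers were retained on a strainer after enzymatic digestion, so other tissue could be carried along. The comparison asks whether fetal fibers with a disrupted Lama2 carry less RNA for the machinery that buffers ATP.

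As background, creatine kinases move a phosphate between ATP and creatine. CKMT2 does so in the mitochondrial intermembrane space, where ATP leaves the matrix through the carrier encoded by Slc25a4, and CKM does the reverse at the myofibrils, so that phosphocreatine carries energy to the site of contraction. CKB is the cytosolic form of brain and many non-muscle tissues and of immature muscle, and it gives way to CKM as fibers mature. Adenylate kinase recovers ATP from ADP, AMP deaminase removes the AMP that results, glycogen phosphorylase releases glucose phosphate from glycogen, and myoglobin stores oxygen and helps it diffuse.

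The values are normalized counts, that is, the reads of a gene after division by the size factor of the library. The WT libraries held 470804 to 2220813 reads on genes and the dyW libraries 3663905 to 18297106, so depth and genotype cannot be told apart at low counts. One read was worth 2.05 to 5.33 normalized counts in WT and 0.0974 to 0.488 in dyW. A read was found at 25530 to 29594 genes in WT and, despite the greater depth, at 14209 to 19360 in dyW. Lama2 itself was at 90.6, 111, 105 and 107 normalized counts in wt1 to wt4, at 4.29 in dyW1 and 6.07 in dyW2, and at 139.7 in the library labelled dyW3, which went against its label. In dyW1, 5 of the 13 fiber genes used as a reference (contractile genes such as Acta1, Myl1, Ttn and Neb) were listed at 0 and all 13 summed to 98.6 normalized counts. The same sum was 2767 in wt1 and between 7083 and 80300.1 in the other 5 libraries. Markers of other cell types moved between libraries as well. The 6 fibroblast markers summed to 4116 to 12484 in WT and 20348 to 28133 in dyW, and the 5 endothelial markers to 328 to 525 in WT and 555 to 1258 in dyW, with none of either list at 0 in any library. Single markers did not all follow these sums. In dyW1 the fibroblast sum was mostly Col1a1 (8467) and Col1a2 (12046), while Col3a1 at 232 was below all WT libraries (581 to 4129), and endothelial Pecam1 had a log2 fold change of -0.57. The 6 cartilage markers summed to 167 to 436943 in WT, with the highest value in wt1, and to 19.7 to 522 in dyW. The 7 erythroid markers summed to 90.6 in wt1 and 14.8 in dyW1, the libraries with the least fiber RNA and the lowest Ckm, against 28845 to 291249 in the other 5. The 7 housekeeping genes summed to 12731 to 48642 in WT and 4597 to 8192 in dyW, although B2m of that list was higher in every dyW library than in every WT library and Tbp had a log2 fold change of 1.26. Whether these shifts contribute to the differences below was not tested, and in such bulk samples fewer fibers and less RNA per fiber cannot be told apart.

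The DNA just before the start of transcription is shown for 3 members, Ckm as the member with the largest difference, Ckb as its non-muscle counterpart and Pygm as the member whose groups did not overlap. Sequences are from RefSeq, matched exactly and once to GRCm39, and run 5′ to 3′. Because GENCODE places alternative exons in these windows of 250 bases, only the part of the Ckm and Pygm windows that no annotated exon covers is printed, with E-boxes (CANNTG, the element read by MYOD and other myogenic factors) in capitals. For Ckb, 30 bases are printed around a match to the MEF2 consensus, in capitals, which overlaps a TATA box (TATAAA) and which 1 annotated Ckb exon covers.
Ckm, chr7:19144769-19144832, + strand, bases -250 to -187: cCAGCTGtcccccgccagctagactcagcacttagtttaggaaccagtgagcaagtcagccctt
Pygm, chr19:6434188-6434278, + strand, bases -250 to -160: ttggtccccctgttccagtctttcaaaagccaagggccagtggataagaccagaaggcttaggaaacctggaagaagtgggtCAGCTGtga
Ckb, chr12:111638782-111638811, - strand, bases -39 to -10: aatgaatgggCTATAAATAGccgccaatgg
Over the whole windows, searched on both strands, Ckm held 1 E-box, Pygm 2 and Ckb none, and 66.2% of all 32851 RefSeq windows of that length held at least 1. The MEF2 consensus, found before Ckb alone of these 3, was in 2.92% of the windows, and TATAAA in 12.4%. These matches describe the letters of the windows and do not show that a factor binds there.

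Of the 8 genes, 7 reached the mean of 5 normalized counts required for testing, and Mb did not. None of the 7 passed the threshold in limma (adjusted P-value under 0.01 and an absolute log2 fold change over 1.5), in either direction. Across all 25791 genes tested, 18.7% were called lower in dyW and 0.0659% higher. The adjusted P-values of the 7 members ran from 0.0812 to 0.984, and 1 member (Ckm) had an unadjusted P-value under 0.05, as did 44.3% of all genes. At an adjusted P-value under 0.05 in limma, 0 members were lower, against 29.6% of all genes. Voom on the recovered reads called 0 members at 0.01, while Ckm passed 0.05 there (log2 fold change -7.53, adjusted P-value 0.0221). Over all genes voom called 6079 lower at the stricter 0.01, so Ckm did not stand out there. The fold change was negative in 6 of 7, against 79.6% of all genes, and the median of the 7 was -0.96 on the log2 scale of normalized count + 1, against -1.99 for all genes. Under the deposited scaling 6 of the 7 lay above the median of all genes and Ckm, at -4.06, below it, but 2 of 7 lay above it under quantile normalization and 0 of 4 among genes with a mean of at least 50. At 1 of the 8, Pygm, every WT library exceeded every dyW library, a pattern shown by 31.5% of all genes, and the reverse pattern was seen at 0 members and 3.28% of genes.

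**Figure D1:**
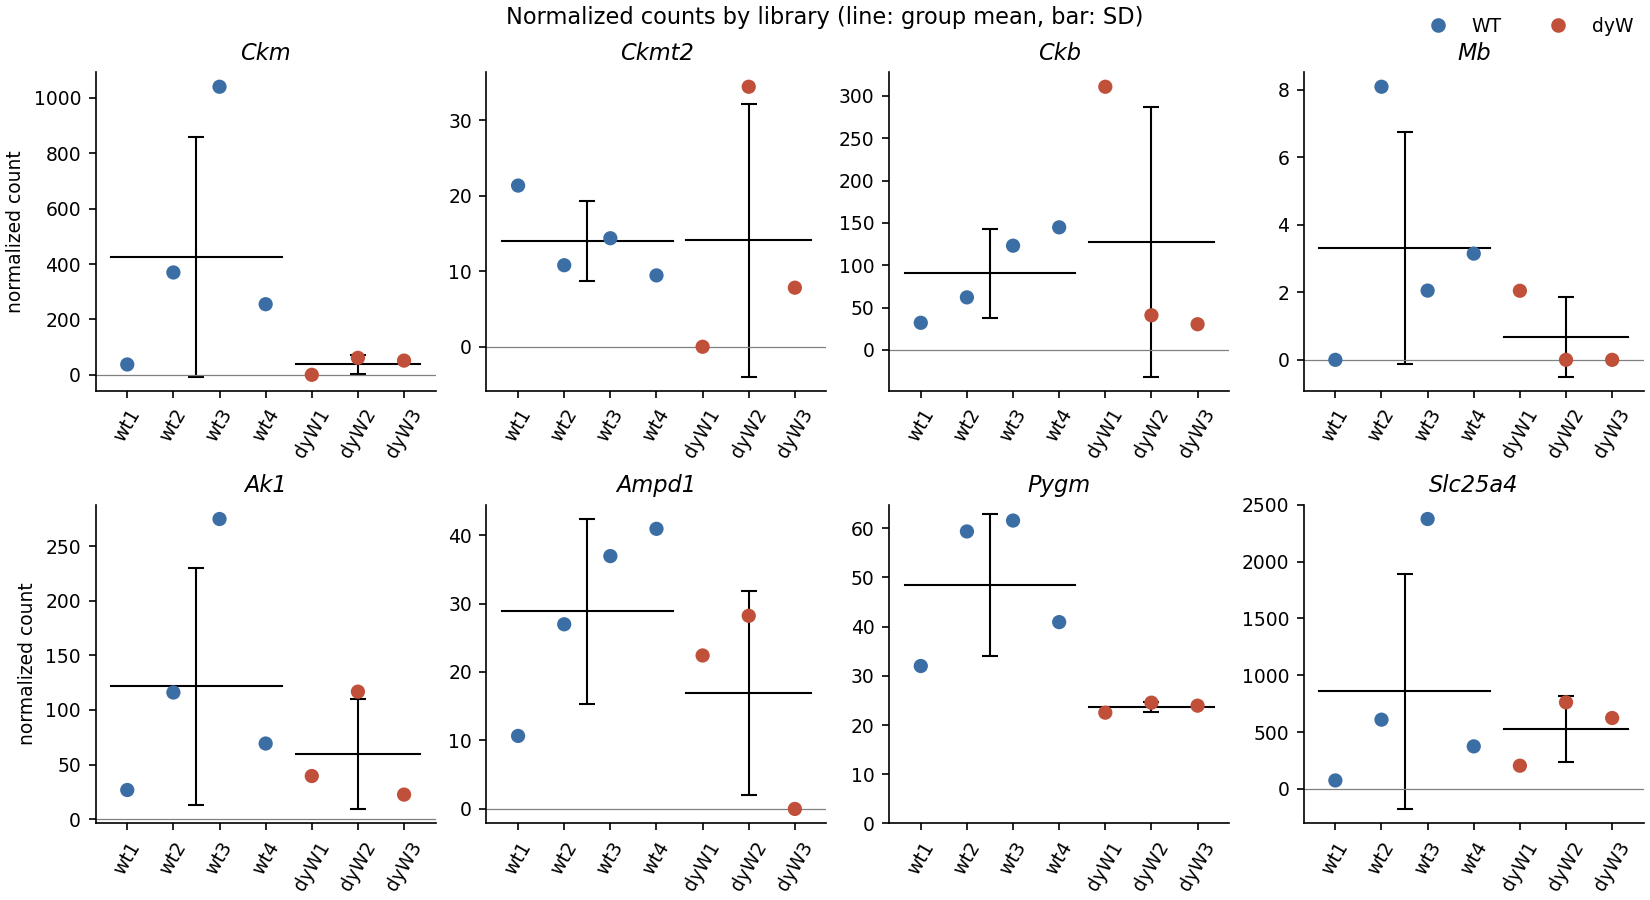
Normalized count (vertical axis, each panel with its own range) of the 8 members in the 4 WT libraries and the 3 dyW libraries, with 1 point per library, a line at the group mean and a bar of 1 SD. Ckm in dyW stays at or under 61.2, Pygm is the only panel where the groups do not overlap, and Ckb peaks at 311 in dyW1.

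Ckm (ENSMUSG00000030399, chr7:19138701-19157965), the cytosolic creatine kinase of mature muscle, was at 37.3, 369, 1040.0 and 255 normalized counts in wt1 to wt4. In dyW1 and dyW2 it was at 0 and 61.2, and in the library labelled dyW3 at 51.3. All dyW values lay far under wt2, wt3 and wt4, but wt1 fell between them, so the groups overlapped. The WT mean was 425 ± 432 (SD, n = 4) and the dyW mean 37.5 ± 32.9 (SD, n = 3). The log2 fold change was -4.06 (SE 1.60), with a limma adjusted P-value of 0.0812 and an exact two-sided permutation P-value of 0.171, where 0.0571 is the smallest that 4 against 3 libraries can give. Behind the 0 in dyW1 were 0 of 14363788 reads, which allows up to 0.292 normalized counts (3 reads, counting error only). Leaving out dyW1 gave -2.12 (adjusted P-value 0.204, limma), and leaving out the library labelled dyW3 gave -4.97 (adjusted P-value 0.0476). Without both wt1 and dyW1, the libraries lowest in fiber genes, it was -3.02 with an adjusted P-value of 0.0272, an alternative added after the data were seen. Ckm remained negative under every setting tried.

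Ckmt2 (ENSMUSG00000021622, chr13:92001503-92025608), the mitochondrial creatine kinase of striated muscle, was low throughout. It was at 21.3, 10.8, 14.4 and 9.44 normalized counts in wt1 to wt4, which rest on 4, 4, 7 and 3 reads. It was at 0 in dyW1, 34.4 in dyW2 (272 reads) and 7.81 in the library labelled dyW3 (16 reads). The dyW libraries thus held both the highest and the lowest value, and the group means were nearly equal at 14.0 ± 5.32 and 14.1 ± 18.0 (SD, n = 4 and n = 3). The log2 fold change of -1.08 (SE 1.15, adjusted P-value 0.502, limma) turned positive, at 0.30, without dyW1.

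Ckb (ENSMUSG00000001270, chr12:111635789-111639008), the brain-type creatine kinase, was at 32.0, 62.0, 123 and 145 normalized counts in wt1 to wt4. It reached 311 in dyW1 (3190 reads) and stayed at 40.9 in dyW2 and 30.3 in the library labelled dyW3. The dyW1 value was thus the highest of all 7, in the library with the fewest fiber transcripts and the largest endothelial marker sum, while dyW2 lay at the low end of the WT range and the library labelled dyW3 just under it. The log2 fold change was -0.078 (SE 0.94, adjusted P-value 0.957, limma). It moved to -1.11 without dyW1 and to 0.54 without the library labelled dyW3, and it was also positive without wt3, wt4 or dyW2.

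Ak1 (ENSMUSG00000026817, chr2:32511448-32528933), the cytosolic adenylate kinase of muscle, was at 26.7, 116, 275 and 69.2 normalized counts in wt1 to wt4. The dyW values were 39.5 in dyW1, 117 in dyW2 and 22.5 in the library labelled dyW3. The last lay just under the WT range and the others inside it, and the log2 fold change was -0.89 (SE 0.92, adjusted P-value 0.486, limma). Ampd1 (ENSMUSG00000070385, chr3:102981272-103007037), the muscle AMP deaminase, was at 10.7, 27.0, 36.9 and 40.9 in WT. It was at 22.4 in dyW1 and 28.2 in dyW2, inside the WT range, and had 0 reads in the library labelled dyW3, which allows up to 1.47 normalized counts. Its log2 fold change was -1.61 (SE 1.22, adjusted P-value 0.342, limma), and -0.037 without the library labelled dyW3.

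Pygm (ENSMUSG00000032648, chr19:6430569-6448538), the glycogen phosphorylase whose loss causes McArdle disease, was at 32.0, 59.3, 61.5 and 40.9 normalized counts in wt1 to wt4. In dyW it was at 22.5, 24.5 and 23.9, the last in the library labelled dyW3. All 3 dyW values were under the lowest WT value, and they lay close together although these libraries differed widely in fiber transcripts. The means were 48.4 ± 14.3 (SD, n = 4) and 23.7 ± 1.04 (SD, n = 3), with a log2 fold change of -0.96 (SE 0.60, adjusted P-value 0.250, limma) and an exact two-sided permutation P-value of 0.0571. The WT values rest on 6 to 30 reads. When all libraries were scaled to the same total, the fold change turned to 0.16 (adjusted P-value 0.891), so its direction depended on how libraries were scaled.

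Mb (ENSMUSG00000018893, chr15:76899686-76940711) was barely detected. The 7 libraries held 0, 3, 1 and 1 reads in WT and 21, 0 and 0 reads in dyW, with the 21 reads in dyW1. This gave 0 to 8.09 normalized counts in WT and 0 to 2.05 in dyW, where a count of 0 allows up to 16.0 in wt1 but 0.379 in dyW2, and the difference was not detectable at this depth. The 2 measured markers of heart, where myoglobin is also abundant, summed to 22.6 to 64.7 in WT and to 0 in dyW.

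Slc25a4 (ENSMUSG00000031633, chr8:46656538-46664325), the ADP/ATP carrier of heart and skeletal muscle, was at 74.6, 609, 2375 and 374 normalized counts in wt1 to wt4. It was at 204 in dyW1, 762 in dyW2 and 624 in the library labelled dyW3. All 3 dyW values were inside the WT range, which spanned 31.8-fold. The log2 fold change was 0.033 (SE 1.06, adjusted P-value 0.984, limma). It was negative, at -0.83, without wt1, and also without wt4, dyW2 or the library labelled dyW3. Unlike Ckm, which was listed at 0, Slc25a4 had 2096 reads in dyW1.

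**Figure D2:**
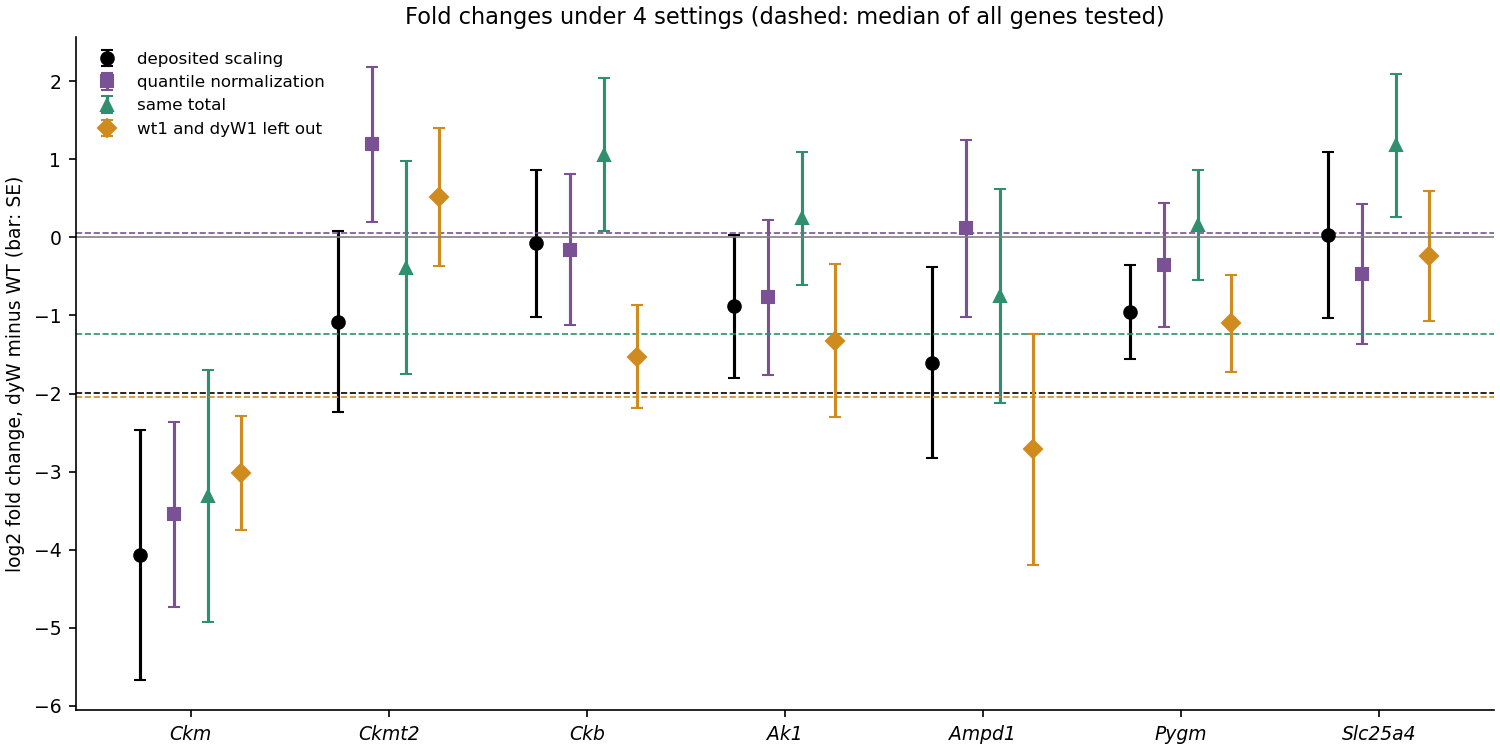
Log2 fold change (dyW minus WT, log2 of normalized count + 1) of the 7 tested members, with bars of 1 SE, under the deposited scaling, quantile normalization, scaling to the same total, and without wt1 and dyW1, and dashed lines at the median of all genes in each setting. Ckm lies under its dashed line in all 4 settings, whereas Ckmt2, Ckb, Ak1, Ampd1, Pygm and Slc25a4 have points on both sides of 0.

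The median of all genes moved from -1.99 under the deposited scaling to 0.059 under quantile normalization and -1.24 with the same total. Among genes with a mean of at least 50 it was 0.20, so it depended on which genes were included. The 4 members among those genes, Ckm, Ckb, Ak1 and Slc25a4, all lay below 0.20. Fold changes are given next against the median of all genes tested. Relative to it, Ckm stood at -2.08, Ampd1 at 0.38, Ckmt2 at 0.91, Pygm at 1.03, Ak1 at 1.10, Ckb at 1.91 and Slc25a4 at 2.02 on the log2 scale under the deposited scaling.

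Per length of all annotated exons merged, the carrier RNA was the most abundant of the 8. These lengths include alternative exons and are uneven, at 9869 bases for Ckm and 10023 for Ak1 against 2957 for Slc25a4. The levels and ranks below therefore depend on the annotation. In RPKM (reads per kb of exon and per 1000000 reads on genes), Slc25a4 ranged from 10.1 to 176 in WT and from 49.3 to 118 in dyW, with rank 1 in 6 of 7 libraries. In dyW1 it had rank 2, behind Ckb at 69.0. Ckm ranged from 1.51 to 23.1 in WT, with rank 2 in wt2 and wt3, rank 3 in wt4 and rank 5 in wt1, and from 0 to 2.90 in dyW, with rank 4 to 7. Ckb had rank 2 or 3 in the WT libraries, at 3.96 to 8.39. Pygm (1.92 to 3.88 in WT), Ak1 (1.06 to 6.02) and Ampd1 (1.12 to 2.14) overlapped one another in WT and were not separable beyond their spread. Ckmt2 (0.306 to 1.53) and Mb (0 to 0.889) had the lowest WT means, but Ckmt2 had rank 4 in wt1 and overlapped Ak1 and Ampd1. On this scale Pygm was at 2.76 to 4.19 in dyW and overlapped WT.

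**Figure D3:**
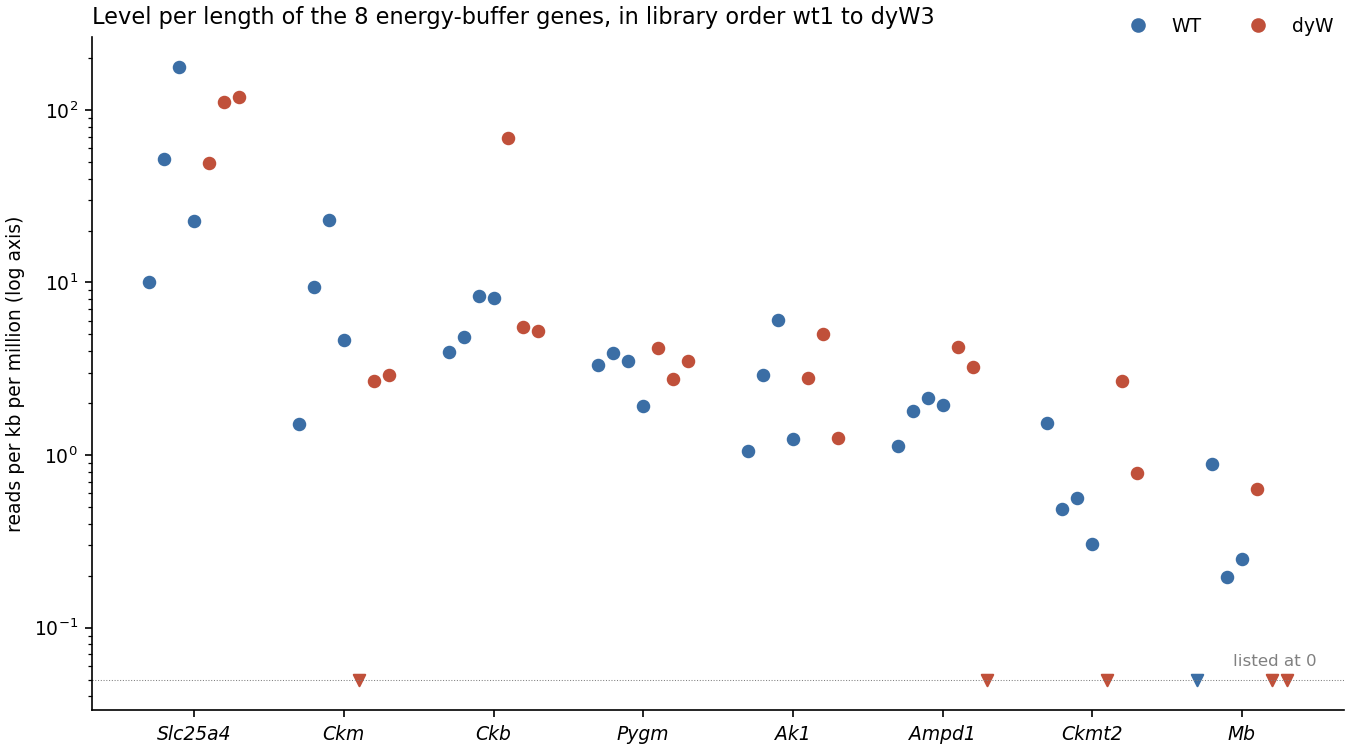
RPKM (log axis) of the 8 members, with the 7 libraries from left to right in the order wt1 to wt4 and dyW1 to dyW3 within each gene, and triangles for values listed at 0. Slc25a4 spans 10.1 to 176 and lies above the other members in every library but dyW1, where Ckb is at 69.0. Lengths are those of all annotated exons merged.

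Muscle forms were next set against the other form of the same enzyme within each library, as a log2 ratio of normalized counts + 1. At low counts the size of such a ratio depends on the pseudocount. For the 5 pairs compared, groups were compared with an exact permutation test (two-sided), which cannot give a P-value below 0.0571. The ratio of Ckm to Ckb, the mature against the immature cytosolic creatine kinase, was 0.22, 2.56, 3.07 and 0.81 in wt1 to wt4. It was -8.28 in dyW1, 0.57 in dyW2 and 0.74 in the library labelled dyW3. The ratio carries no length correction. Per length of all annotated exons merged (9869 bases for Ckm, 3220 for Ckb), Ckm exceeded Ckb only in wt2 and wt3. These lengths include alternative exons, so that order depends on the annotation. The groups overlapped (difference -3.99, exact P-value 0.229). Without dyW1 the difference was -1.01 (exact P-value 0.533).

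The ratio of Pygm to Pygb, the brain form of glycogen phosphorylase, did separate the groups, but narrowly. It was 0.56, 0.066, 0.44 and -0.38 in wt1 to wt4, and 0.66, 2.23 and 4.07 in dyW1, dyW2 and the library labelled dyW3. All dyW ratios exceeded all WT ratios (difference 2.15, exact permutation P-value 0.0571, not adjusted for the 5 pairs). The gap lay between 0.56 in wt1, which rests on 6 Pygm and 4 Pygb reads, and 0.66 in dyW1. How many gene pairs separate in this way was not tested. The difference was 2.65 with a pseudocount of 0.1 and 0.999 with 10. Pygb was at 21.3 to 56.6 normalized counts in WT and 0.488 to 13.8 in dyW, with a log2 fold change of -3.10 (SE 0.90) that missed the threshold (adjusted P-value 0.0287, limma). Under the deposited scaling both forms were below the WT range in every dyW library. Per length and per 1000000 reads neither was, since Pygm overlapped WT and Pygb in dyW1, at 0.973 RPKM, lay inside the WT range of 0.836 to 1.40.

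The other 3 ratios overlapped between groups. Slc25a4 to Slc25a5, the carrier of proliferating cells, was 0.22 to 1.46 in WT and -0.94, -0.67 and 0.37 in dyW1, dyW2 and the library labelled dyW3 (difference -1.24, exact permutation P-value 0.114). Ckmt2 to Ckmt1, the ubiquitous mitochondrial form, was -1.99 to 0.74 in WT and 0.00 to 4.97 in dyW (difference 3.43, exact permutation P-value 0.114), and the 0.00 in dyW1 stands for 0 reads of either gene. The difference was 5.27 with a pseudocount of 0.1 and 1.51 with 10. For Ampd1 to Ampd3, the red-cell form, the WT ratios were -0.29 to 1.30. In each dyW library 1 of the 2 genes had 0 reads (Ampd3 in dyW1 and dyW2, Ampd1 in the library labelled dyW3), so the pseudocount sets the size of the dyW ratios and no comparison is made.

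**Figure D4:**
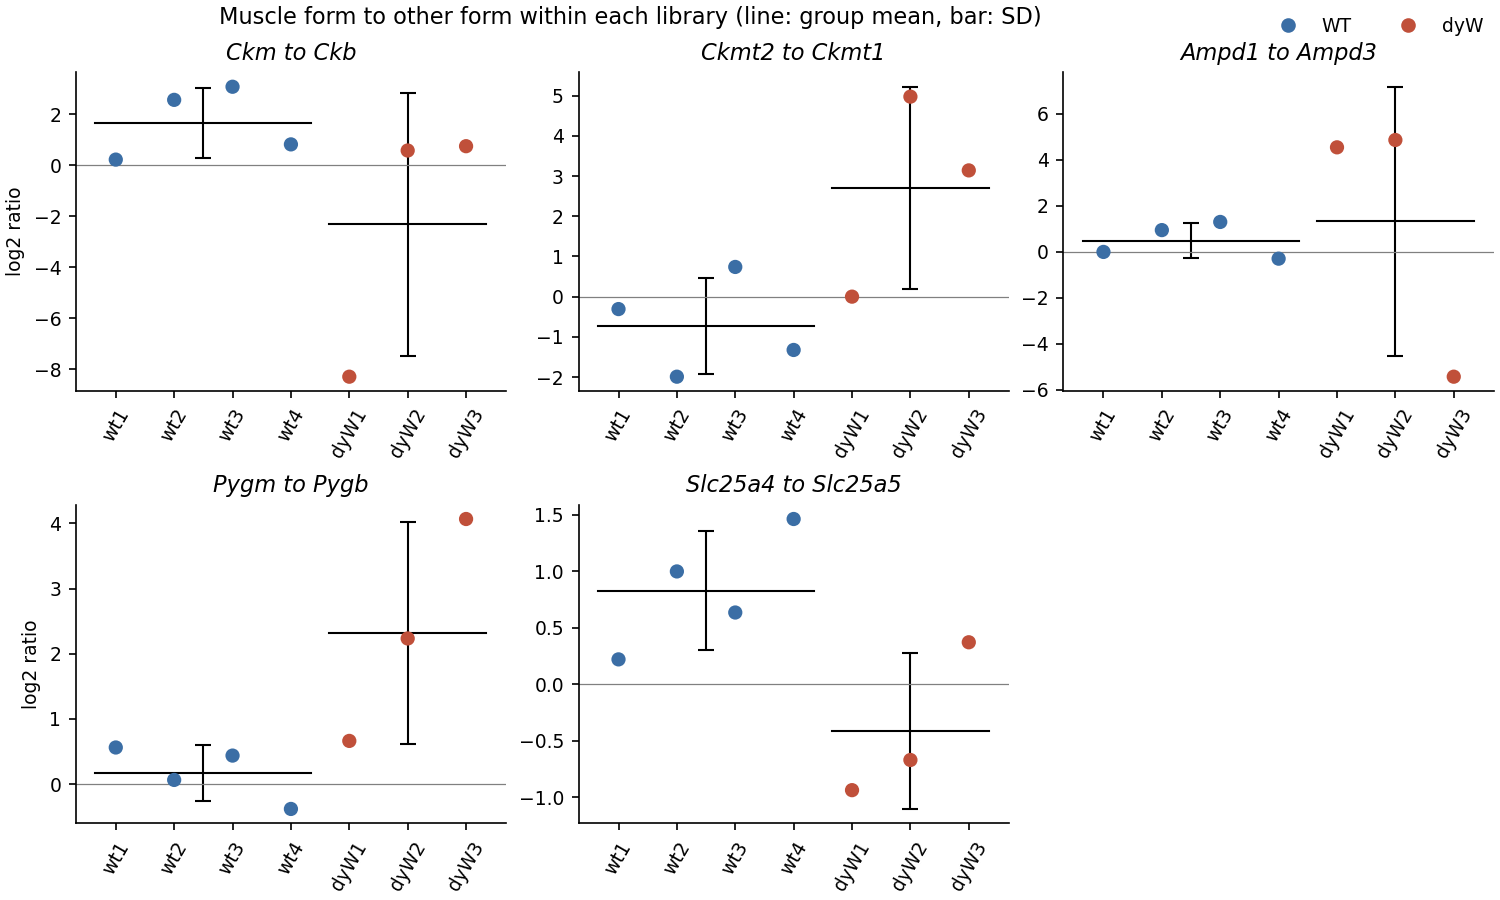
Log2 ratio of the muscle form to the other form of 5 enzymes or carriers in each library, with 1 point per library, a line at the group mean and a bar of 1 SD. The dyW points lie above all WT points for Pygm to Pygb (0.56 is the highest WT value), and the other 4 panels overlap.

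Since the libraries differed in fiber RNA, each member was also expressed relative to the mean log2 value of the 13 fiber genes of its library. On this scale Ckm was at -0.46, -0.10, 0.48 and -0.19 in wt1 to wt4, a narrow range for a gene whose normalized counts varied 27.9-fold in WT. It was at -1.94 in dyW1, -2.50 in dyW2 and -1.41 in the library labelled dyW3. Every dyW value lay under every WT value (difference -1.88, exact permutation P-value 0.0571). In dyW1 the value is only the negative of a fiber mean of 1.94, because Ckm had 0 reads there, and no gene can have a lower value in that library. Only 595 of the 25791 genes lay above that limit in all WT libraries and could show the pattern, and 3 of them (0.504%) did. The reverse was seen at 3.16% of all genes. With a pseudocount of 10 the groups overlapped (difference -1.32, exact permutation P-value 0.114). Without both wt1 and dyW1 the difference was -2.02, where 3 against 2 libraries cannot give an exact P-value under 0.200. With Acta1 (skeletal actin) alone as the reference it turned to 0.72 (exact permutation P-value 0.686), so Ckm was lower relative to the mean of the 13 fiber genes but not relative to Acta1. Acta1 was itself at 1973 to 52989 normalized counts in WT and at 4.09 to 3667 in dyW.

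No other member separated the groups relative to fiber genes. Slc25a4 was at 0.52, 0.62, 1.67 and 0.36 in WT and at 5.74, 1.11 and 2.17 in dyW1, dyW2 and the library labelled dyW3 (difference 2.22, exact permutation P-value 0.114). The largest dyW1 value was that of Ckb, at 6.34 against -2.66 to -0.68 in WT, while dyW2 at -3.08 lay under all WT values and the library labelled dyW3 at -2.15 inside their range. In Ak1, Ampd1, Mb and Pygm dyW1 likewise lay above all other libraries, and their differences of 0.58 to 1.30 turned negative without dyW1. Mb had 0 reads in wt1, dyW2 and the library labelled dyW3, and Ampd1 had 0 in the last of these. Such values are only the negative of the fiber mean, so the Mb difference is not interpreted. Ckmt2 differed by 1.10 with an exact permutation P-value of 0.400.

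**Figure D5:**
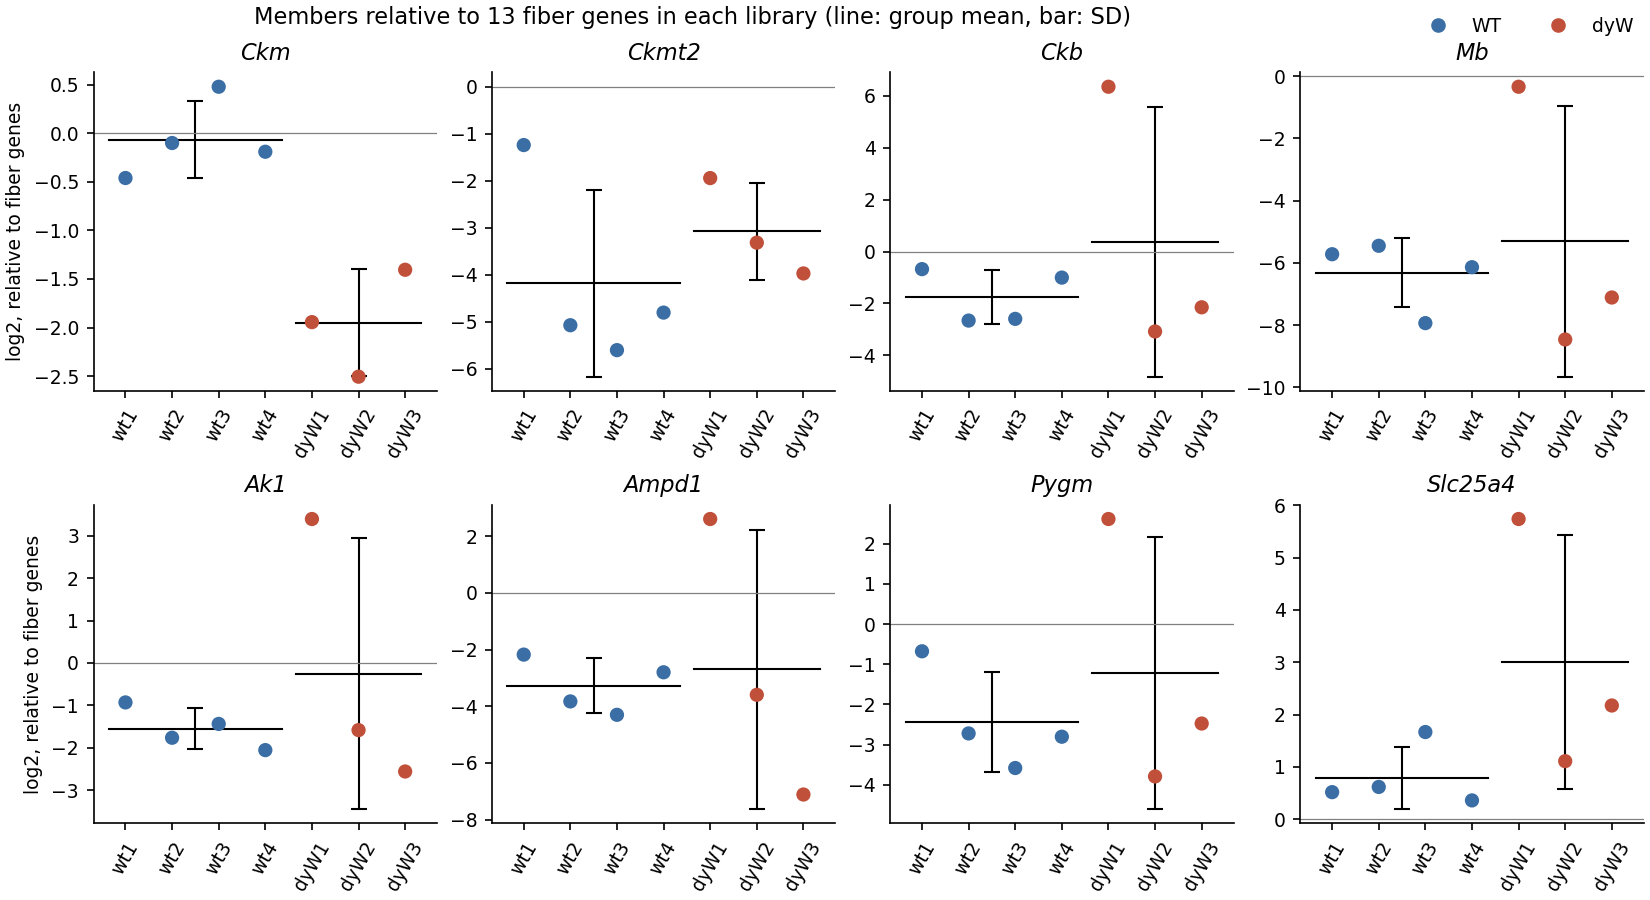
Log2 level of the 8 members less the mean log2 level of 13 fiber genes in the same library, with 1 point per library, a line at the group mean and a bar of 1 SD. Ckm is the panel where all dyW points lie under all WT points, and in the Ckb, Mb, Ak1, Ampd1, Pygm and Slc25a4 panels dyW1 stands above the rest.

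The wider pathways were covered by 8 lists, which include the members and hold 73 genes. Of 71 tested, 6 were called lower in dyW (8.45%, against 18.7% of all genes) and 0 higher, and the median log2 fold change was -0.94. These 6 calls were 1 of 7 creatine genes, 1 of 9 adenylate kinases, 2 of 19 glycogen genes, 1 of 2 tested globins and 1 of 11 transcriptional regulators. None of the 6 genes of the purine nucleotide cycle, the 9 tested genes of mitochondrial nucleotide and phosphate exchange or the 8 of the AMP-activated kinase was called.

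Among creatine genes the call was Ckmt1, the ubiquitous mitochondrial creatine kinase, at 26.7, 45.8, 8.21 and 25.2 normalized counts in WT (4 to 17 reads) and 0 to 0.126 in dyW (1 read in all). Its log2 fold change was -4.51 (SE 0.76, adjusted P-value 0.00386, limma), a size that depends on the pseudocount. Gatm, the first enzyme of creatine synthesis, was at 42.6 to 498 in WT and 11.6 to 577 in dyW and showed no such difference (log2 fold change -0.56, adjusted P-value 0.771). Among adenylate kinases the call was Ak8, at 4.10 to 16.2 in WT on 1 to 6 reads per library and at most 0.390 in dyW (log2 fold change -2.97, adjusted P-value 0.00957, limma), and this size likewise depends on the pseudocount.

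Of the glycogen genes, Phkg1 and Ppp1r3a were called. Phkg1, the catalytic subunit of the muscle phosphorylase kinase that switches PYGM on, was at 181, 89.0, 32.8 and 66.1 in WT. It was at 0.195 in dyW1, 0.253 in dyW2 and 5.37 in the library labelled dyW3 (log2 fold change -5.20, SE 0.91, adjusted P-value 0.00424, limma). Ppp1r3a, the muscle subunit that targets protein phosphatase 1 to glycogen, was at 5.33 to 65.6 in WT and had 1 read in dyW2 and 0 in the other dyW libraries (log2 fold change -4.59, adjusted P-value 0.00533, limma), and the size of this fold change depends on the pseudocount. The most abundant genes of that list were not called. Ugp2, which makes the UDP-glucose used for glycogen, was at 37.3 to 195 in WT and 153 to 356 in dyW (log2 fold change 1.69, adjusted P-value 0.0947), and Gaa, the lysosomal glucosidase, was at 71.8 to 213 and 37.2 to 48.3 (log2 fold change -1.38, adjusted P-value 0.108).

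In the remaining lists the calls were Ngb and Ppargc1b. Ngb, neuroglobin, had 2, 4, 2 and 4 reads in WT and 0 in all dyW libraries (adjusted P-value 0.00520, limma). No fold is given because the WT values were near the 3-read limit. Of 8 markers of neural and Schwann cells, 2 (Nefl and Snap25) were likewise called lower and 0 higher. The 8 markers summed to 133 to 431 in WT and 1.27 to 810 in dyW. Ppargc1b, a coactivator of mitochondrial biogenesis, was at 10.3 to 32.0 in WT and at 0, 2.02 and 0 in dyW (log2 fold change -3.71, adjusted P-value 0.00638, limma), a size that depends on the pseudocount. Ckmt1, Ak8, Ppp1r3a, Ngb and Ppargc1b are all low-count genes, for which the difference in depth and in genes detected between the groups applies, and its part in these calls was not tested. Adss, adenylosuccinate synthase of the purine nucleotide cycle, was at 59.8 to 78.2 in WT and 169 to 261 in dyW, and its log2 fold change of 1.54 (SE 0.51) missed the threshold at an adjusted P-value of 0.0494. Adsl, the lyase of the same cycle, had an adjusted P-value of 0.521. The most abundant genes of the kinase list, Stk11 and Prkab1, had adjusted P-values of 0.517 and 0.442, the oxygen-binding Cygb 0.496, and the regulators Mef2a and Mef2c 0.940 and 0.283. Slc25a5 was at 64.0 to 1530.3 in WT and 392 to 1214 in dyW (log2 fold change 1.27, adjusted P-value 0.364). No gene of the 8 lists was called lower when dyW1 was left out, nor without wt2, wt4 or dyW2, and 3 were without wt1. The calls were also lost under quantile normalization and with the same total for all libraries.

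Finally, the genes whose levels most resembled each member were sought among 6111 genes with a mean of at least 50 normalized counts, by Pearson's r on the log2 scale over the 7 libraries, as a description in which all genes share the libraries and their scaling. Ckm was most like Acta1 (r = 0.98), followed by Clec3b and Mtch1 (both r = 0.96). Slc25a4 was most like Uqcrh, a subunit of respiratory complex III (r = 0.99), Fkbp1a (r = 0.99) and Fhl1 (r = 0.98). Ckb was most like Ltbp1 (r = 0.93), Nfil3 (r = 0.90) and Actr1b (r = 0.90). No likeness is given for Mb, whose 0 to 3 reads per WT library and 0, 0 and 21 in dyW leave its profile near the detection limit. The closest genes were Msmo1, Mea1 and Spc24 for Ckmt2 (r = 0.99 for each) and Ptma, Trim35 and Mcrip1 for Ak1 (r = 0.96 to 0.98). They were Cystm1, Ap1m1 and Spon1 for Ampd1 (r = 0.97 to 0.98) and Sgta, Tcf3 and Pgls for Pygm (r = 0.92 to 0.94). Ckmt2 had 3 to 7 reads per WT library and 0 in dyW1. Ampd1 had 2 to 18 per WT library and 0 in the library labelled dyW3. The r of these 2 genes thus rests partly on values near the detection limit.

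Some reads could belong to neighbouring or similar genes, and the strand setting of the counting is not given in the sources used here. On the opposite strand, A930016O22Rik overlaps Ckm, 1700119I11Rik overlaps Ckmt2, Trmt61a overlaps Ckb, and Gm49540 and Apol6 overlap Mb. Gm55445 and Gm43063 overlap Ampd1 on its own strand. Stretches of 50 bases shared with another gene made up 18.5% of Ckm, 11.3% of Ckb and 22.6% of Mb transcript sequence, and 0% of Slc25a4. For Ckmt1, the creatine gene called lower, the share was 12.7%, with Strc and Ppip5k1. For Pygm it was 0.281%, so Pygm and Pygb are nearly separable, whereas 24.4% of Slc25a5 was shared, mostly with predicted genes.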

How the data were processed

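Fibers of 4 WT and 3 dyW fetuses were sequenced by SMART-seq2, which amplifies full-length cDNA by PCR without molecular identifiers, so intervals and limits cover counting error only. Per the labels and the methods, the authors used Cutadapt for trimming, RNA STAR for alignment (to GRCm39) and FeatureCounts for counting uniquely mapped reads per gene, and deposited counts divided by 1 DESeq2 size factor per library. Versions, annotation release and strand setting are not given in the sources used here. The deposited table of the authors' own fold changes and P-values was not used. Nothing says whether fetuses shared litters, so P-values measure the spread between these libraries.

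Each library was divided by its step to recover reads, and 100% of values came out whole (within 0.1 read). Genes with a mean of at least 5 were fitted with the lmFit and trended eBayes functions of limma 3.58.1 (R 4.3.3), after adding a pseudocount of 1 and taking log2, with P-values adjusted by Benjamini-Hochberg over all genes tested. Such fold changes understate the change of low genes. Ratios, and single genes, were compared with an exact permutation test (two-sided, all 35 ways to label 3 of 7 libraries). The remaining computation used Python 3.11.15 with scipy 1.17.1, pandas 2.3.3, numpy 2.4.6 and, for plots, matplotlib 3.10.9. Exon lengths and coordinates are from GENCODE mouse release 39 on GRCm39, and the length of a gene merges all its annotated exons. The limma step was also run on simulated data in which the changed genes had a mean of at least 50. That run does not cover changes at low counts or libraries as unlike as these. The alternatives comprised other pseudocounts (0.1 and 10), other filters (none, and a mean of 50 or more), other scalings (quantile, same total), a replicate block, looser thresholds, Acta1 as reference and each library left out. The genes named are the members, Lama2, the other form of each ratio, the called and the 2 most abundant genes of each list and the 3 genes most like each member. 1 planned ratio is not reported here. The members and lists were chosen with earlier results of these data known.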

Additional observations from a re-analysis of the deposited data

How the results depend on the processing

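No member was called under any setting, and Ckm stayed negative in all of them, from -7.53 (voom) to -2.12 (without dyW1) with adjusted P-values of 0.0221 to 0.208. The planned edgeR and DESeq2 fits were not run, and voom on the recovered reads, chosen after seeing the data, took their place. Leaving out both libraries numbered 1 was also chosen after seeing the data. The cause of the changes below was not tested. Over all genes, 4830 lower and 17 higher calls became 0 and 0 with a pseudocount of 10, a mean of at least 50, the same total, or without both libraries numbered 1, and 2 and 0 under quantile normalization. Higher calls were 41 with a pseudocount of 0.1, 10 without a filter and 5 with voom, and at an adjusted P-value under 0.05 there were 7625 lower and 259 higher. Leaving out 1 library gave 0 to 6698 lower calls (0 without wt2, wt4 or dyW2, and 2090 without dyW1) and 0 to 25 higher. The number of genes with unadjusted P-values under 0.05 was still 10626 with a pseudocount of 10, 1253 with a mean of at least 50, 10261 with the same total and 10924 without both libraries. The 6 lower calls of the pathway lists became 0 under the pseudocount of 10, the mean of at least 50, quantile normalization, the same total and without both libraries, 11 lower and 1 higher at 0.05, and 0 to 9 without 1 library.

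Fold changes turned for Ckmt2 (1.19 under quantile normalization, 0.51 without both libraries), Ckb (1.06 with the same total, 0.027 with voom), Ak1 (0.25) and Pygm (0.16) with the same total, Ampd1 (0.11 under quantile normalization) and Slc25a4 (-0.47 under quantile normalization, -0.39 with voom, -0.24 without both libraries). Relative to fiber genes, Ckm turned to 0.72 with Acta1 alone and Ampd1 to -0.11 with a pseudocount of 0.1. On that scale, without both libraries, Ckb was at -0.53, Mb at -1.28, Ak1 at -0.32, Ampd1 at -1.71 and Pygm at -0.098.

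Without 1 library, ranges were -5.10 to -2.12 for Ckm, -2.27 to 0.30 for Ckmt2, -1.11 to 0.54 for Ckb, -1.53 to -0.34 for Ak1, -2.47 to -0.037 for Ampd1, -1.13 to -0.83 for Pygm and -0.83 to 0.83 for Slc25a4. For ratios they were -5.52 to -1.01 (Ckm to Ckb), 2.29 to 4.78 (Ckmt2 to Ckmt1), -0.93 to 4.22 (Ampd1 to Ampd3), 1.28 to 2.98 (Pygm to Pygb) and -1.63 to -0.98 (Slc25a4 to Slc25a5). Relative to fiber genes they were -2.15 to -1.61 for Ckm, 0.54 to 2.08 for Ckmt2, -0.88 to 3.83 for Ckb, -1.48 to 2.59 for Mb, -0.52 to 2.45 for Ak1, -2.08 to 2.78 for Ampd1, -0.69 to 2.51 for Pygm and 0.85 to 3.16 for Slc25a4. Lama2, at -2.58 (adjusted P-value 0.103, limma), ranged from -4.09 to -1.72 and passed the threshold without the library labelled dyW3 (0.00202).

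Same-numbered libraries deviated with r = 0.15, -0.049 and -0.088, so the numbers did not pair them. With the replicate block, calls were 1 lower and 0 higher over all genes and 0 in the lists, and Ckb (0.22) and Slc25a4 (-0.055) changed sign.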
